A study of Homo sapiens with 9 samples.

Results

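The mRNA levels of 36 genes of triglyceride (TG) and phospholipid synthesis were compared between the human hepatoma line Huh-7 and 2 knockout lines made from it. The genes were taken by their symbol from a written list of enzymes, which was drawn up with earlier results of these data known. All 36 were found among the 58735 genes of the deposited tables. They comprise 11 genes of TG synthesis, 2 genes of TG breakdown, 11 genes of phosphatidylcholine (PC) synthesis and remodelling, and 12 genes of the synthesis of other phospholipids. The control group is wild type Huh-7. Ako-3 is 1 Huh-7 clone carrying an APOB knockout made with CRISPR/Cas9 ribonucleoprotein complexes, and Mko-3 is a Huh-7 line deficient in MTTP that the same laboratory had made earlier. Cells of all 3 groups were grown in DMEM with fetal bovine serum and, close to confluence, were washed and kept overnight without serum before RNA was taken. Poly(A) RNA of 3 biological replicates per group was sequenced, giving 9 libraries. The 3 control libraries serve both knockouts, and because each knockout is a single line, a difference between that line and control cells that the deleted gene does not cause cannot be told apart from the effect of the deletion. P values measure the spread between the replicates of these lines only.

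In the liver, TG and phospholipids are built along a shared route. Acyltransferases load fatty acids onto glycerol 3-phosphate to give phosphatidic acid, lipins remove the phosphate to give diacylglycerol, and diacylglycerol is either esterified to TG or joined to an activated choline or ethanolamine head group. Phosphatidic acid can instead be activated with CTP and becomes the source of phosphatidylinositol, phosphatidylglycerol and cardiolipin. ApoB, the structural protein of very low density lipoproteins, and the microsomal triglyceride transfer protein (MTP, encoded by MTTP) bring these lipids together for secretion, with TG in the core of the particle and PC as the main lipid of its surface.

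The counts assigned to genes ranged from 14638727 to 20179760 per library. APOB mRNA was 61.1% lower in Ako-3 cells than in control cells, with a log2 fold change of -1.36 ± 0.131 (SE) and an edgeR adjusted p of 7.1e-05, and MTTP mRNA was 86.4% lower in Mko-3 cells, with a log2 fold change of -2.88 ± 0.065 (SE) and an edgeR adjusted p of 9.4e-19. All 15 hepatocyte markers examined were above an FPKM (fragments per kilobase of transcript, scaled to library size) of 1 in at least 1 group, and 2 of the 17 markers of leukocytes, endothelium, stroma and adipocytes were, while CD68, CD163, EMCN and ADIPOQ had no counts. The summed hepatocyte markers ranged from 5656 to 5945 FPKM in control, from 6791 to 7164 in Ako-3 and from 5445 to 5693 in Mko-3 libraries. The summed markers of other cell types ranged from 11.02 to 12.53, from 15.01 to 16.19 and from 8.158 to 8.884 FPKM in the same order, and mitochondrial genes took 5.52% to 6.17%, 7.06% to 7.40% and 5.75% to 5.82% of the counts. The part of these shifts in the results below was not tested.

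Control Huh-7 cells expressed most of the pathway. Of the 36 genes, 31 had a mean FPKM above 1, and 26 were at or above 6.16 FPKM, the median of the 12692 genes above 1. FPKM divides counts by gene length, so these levels can be set side by side between genes. AGPAT2, a lysophosphatidic acid acyltransferase, stood first with 187 ± 18.5 FPKM (SD, n = 3). It was followed by the choline kinase CHKA with 41.1 ± 3.84 FPKM, the phosphatidylinositol synthase CDIPT with 38.6 ± 3.43 FPKM and DGAT1, which makes TG from diacylglycerol, with 36.1 ± 3.43 FPKM. The ranges of CHKA, CDIPT and DGAT1 overlapped. Of the 35 pairs of neighbours in the order of levels, 23 overlapped, so the order within the middle of the list is not resolved by 3 libraries.

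Of the 36 genes, 5 lay at or below 1 FPKM in control cells. LPCAT2, a lysophosphatidylcholine acyltransferase, had no count in any of the 9 libraries, which allows up to 3 counts per library. AGPAT4 had 0 to 8 counts in control libraries, and the hormone-sensitive lipase gene LIPE had 1 to 8. CHKB had 10 to 22 counts in control libraries, and the CTP:phosphocholine cytidylyl transferase isoform gene PCYT1B had 7 to 13. AGPAT4, LIPE and LPCAT2 did not pass the filter on low counts in any comparison, which left 33 genes to test.

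**Figure D1:**
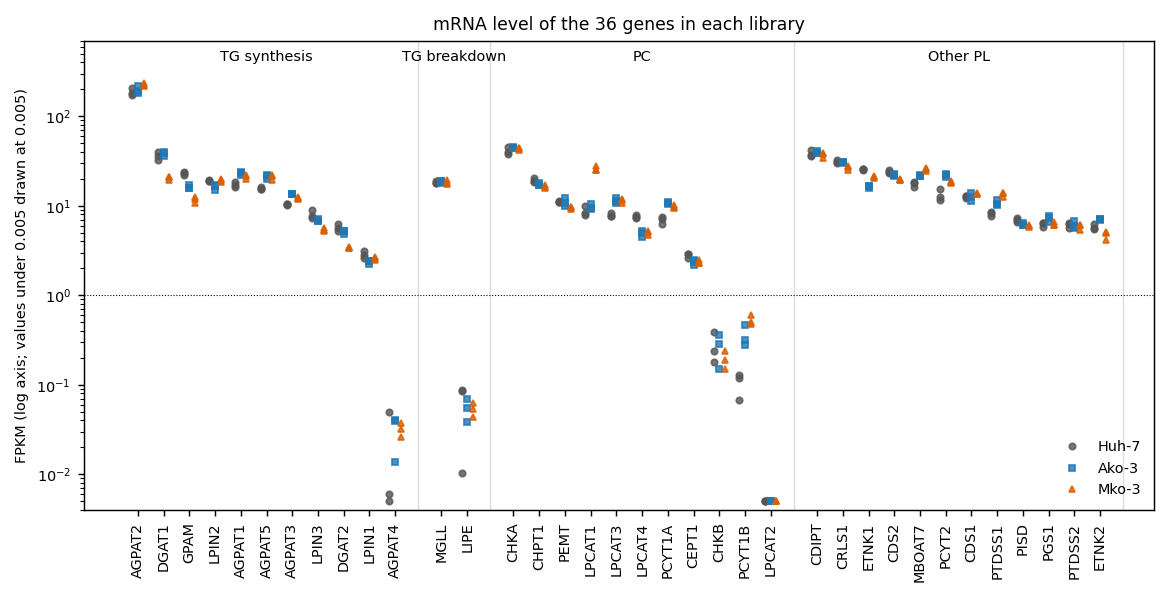
Deposited FPKM of the 36 genes on a log axis, with 1 point per library (grey circles, Huh-7; blue squares, Ako-3; orange triangles, Mko-3) and the genes of each class ordered by their mean in control cells. The dotted line marks 1 FPKM. AGPAT2 lies above all other genes, the 5 genes under the line are CHKB, PCYT1B, LIPE, AGPAT4 and LPCAT2, and LPCAT1 in Mko-3 cells stands clear of both other groups.

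Most of the 33 tested genes changed by less than 2-fold in either knockout. At the thresholds of the study (a log2 fold change of 1 or more in either direction and an adjusted p of 0.05 or less), only PCYT1B passed in Ako-3 against control cells, and PCYT1B and LPCAT1 passed in Mko-3 against control cells, all upward. PCYT1B had 7 to 13 counts in control libraries and entered the test only through the clones, where it was high, so its call is not independent of the filter. With at least 10 counts required in every library, 0 members passed in Ako-3 and 1, LPCAT1, in Mko-3 cells. The calls with the usual filter are 1 and 2 of 33 genes, where 8.52% of the 15787 genes tested in the first comparison and 11% of the 15745 in the second passed the same thresholds, 3.52% and 3.82% of them upward. By the adjusted p alone, 11 of the 33 genes rose and 8 fell in Ako-3 cells, and 11 rose and 13 fell in Mko-3 cells, which is 57.6% and 72.7% of those tested. Over all genes tested, 49.9% passed this test in Ako-3 cells (25.5% higher and 24.4% lower) and 54% in Mko-3 cells (26.9% higher and 27.1% lower). How often a gene passes depends on its level, so these shares are a description only. For the 33 genes, the median log2 fold change was 0.01 in Ako-3 and -0.07 in Mko-3 cells, beside -0.01 and -0.01 over all genes tested. Genes of every synthesis class were found among both the risen and the fallen.

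Between the clones, only LPCAT1 passed the thresholds of the study, where 5.73% of the 15528 genes tested did so (2.26% higher and 3.47% lower in Mko-3 cells). With the adjusted p alone, 6 genes were higher and 12 lower in the MTTP than in the APOB knockout, where 41.6% of all genes tested passed (21.1% higher and 20.6% lower), and the median log2 difference of the 33 genes was -0.08 beside 0.01 over all genes. Against the shared control, 9 genes were higher in both clones (AGPAT1, AGPAT3, AGPAT5, PCYT1A, PCYT1B, LPCAT3, PCYT2, PTDSS1 and MBOAT7), 6 were lower in both (GPAM, LPIN3, CHPT1, CEPT1, LPCAT4 and ETNK1), and ETNK2 was higher in Ako-3 and lower in Mko-3 cells. MGLL, CHKA, CHKB, PTDSS2, CDS1 and CDIPT did not pass the test in either clone. Because both comparisons use the same 3 control libraries, such shared directions are not independent. PCYT1B is counted among the 9, but it entered the tests against control only through the clones, where it was high. Its calls carry no weight of their own. The share of all genes called in both clones was not counted, so these numbers describe the members only. Taken singly, 49.9% of all genes tested passed in Ako-3 and 54% in Mko-3 cells. Of the 36 genes, 10 overlap an expressed gene on the opposite strand, and the library protocol, as far as the labels describe it, did not mark strand, so that reads from such stretches cannot be told apart. Overlaps are given in bases of whole gene spans, introns included, and the overlap of exons was not measured.

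**Figure D2:**
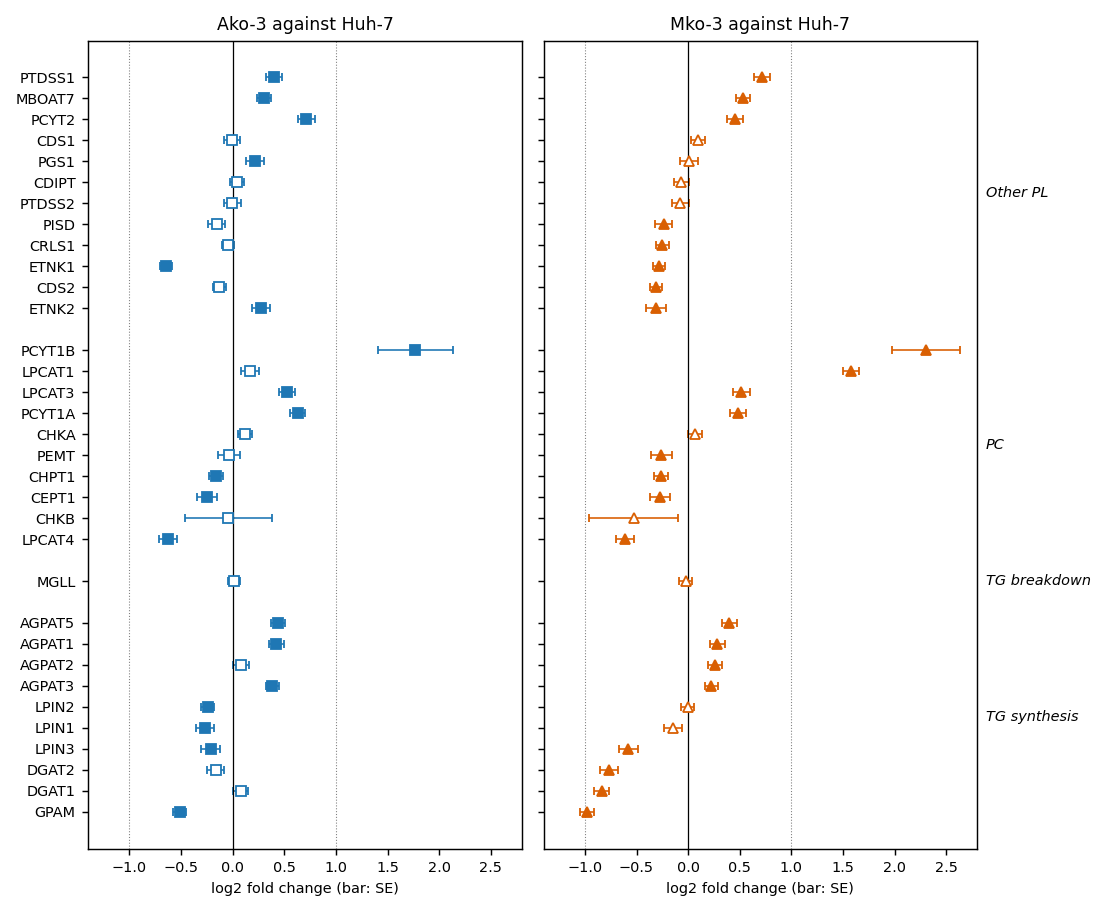
Log2 fold changes of the 33 tested genes in Ako-3 (left) and Mko-3 (right) against control cells, grouped by class, with standard errors as bars. Filled symbols have an edgeR adjusted p of at most 0.05, and dotted lines mark a log2 fold change of 1 in either direction. PCYT1B in both panels and LPCAT1 in the Mko-3 panel lie beyond the dotted lines, and GPAM, DGAT1 and DGAT2 lie lowest in the Mko-3 panel.

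In Mko-3 cells GPAM and both DGAT genes of TG synthesis fell, and the 4 tested AGPAT genes rose. Of the 10 tested genes of TG synthesis, 3 rose and 4 fell in Ako-3 cells, beside 25.5% and 24.4% of all genes tested. In Mko-3 cells 4 rose and 4 fell, beside 26.9% and 27.1% of all genes tested. GPAM (chr10:112149864-112215377, hg38, minus strand) encodes the mitochondrial glycerol-3-phosphate acyltransferase, which attaches the first fatty acid. It measured 21.97, 23.51 and 23.71 FPKM in control, 17.25, 15.65 and 15.72 in Ako-3, and 12.42, 12.04 and 10.86 in Mko-3 libraries. The 3 groups did not overlap, with control cells highest and Mko-3 cells lowest. GPAM mRNA fell by 29.9% in Ako-3 cells (log2 fold change -0.51 ± 0.064 SE, edgeR adjusted p = 1.3e-06) and by 49.4% in Mko-3 cells (-0.98 ± 0.066 SE, edgeR adjusted p = 1.1e-10). Mko-3 cells were also below Ako-3 cells, with a log2 difference of -0.47 ± 0.050 (SE) and an edgeR adjusted p of 1e-12. The fall in Mko-3 cells was just short of the fold threshold of the study, and crossed it at -1.01 without control replicate 1, -1.02 without Mko-3 replicate 1, and -1.05 with upper quartile scaling. GPAT3 and GPAT4, which are outside the list and were added after their values were seen, encode microsomal enzymes of the same first step. GPAT4 was 17.3% higher in Ako-3 (edgeR adjusted p = 0.014) and 51.5% higher in Mko-3 cells (edgeR adjusted p = 4.2e-07), whereas GPAT3 did not pass the test, with log2 fold changes of -0.16 (edgeR adjusted p = 0.09) and -0.08 (edgeR adjusted p = 0.36).

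The AGPAT genes encode the enzymes that attach the second fatty acid to give phosphatidic acid. AGPAT1, AGPAT3 and AGPAT5 rose in both clones, to 1.34, 1.31 and 1.36 times control in Ako-3 cells and to 1.22, 1.17 and 1.32 times control in Mko-3 cells, with edgeR adjusted p values from 2e-05 to 0.0034. AGPAT1 and AGPAT3 were lower in Mko-3 than in Ako-3 cells, by 9.34% (edgeR adjusted p = 0.031) and 10.3% (edgeR adjusted p = 0.0034). AGPAT2, the most abundant gene of the list, was 19.7% higher in Mko-3 than in control cells (edgeR adjusted p = 0.0025) and 5.62% higher in Ako-3 cells, where it did not pass the test (edgeR adjusted p = 0.40). Mko-3 cells had 13.3% more AGPAT2 mRNA than Ako-3 cells (edgeR adjusted p = 0.0015).

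The lipins convert phosphatidic acid to diacylglycerol, and LPIN1 is also known as a nuclear coactivator. LPIN3 measured 9.015, 7.727 and 7.245 FPKM in control, 6.815, 7.061 and 6.850 in Ako-3, and 5.344, 5.276 and 5.585 in Mko-3 libraries. Mko-3 libraries were below all others, and the Ako-3 libraries lay just under the lowest control library. LPIN3 mRNA fell by 33.1% in Mko-3 cells (log2 fold change -0.58 ± 0.093 SE, edgeR adjusted p = 2e-05). In Ako-3 cells it fell by 13.9% with an edgeR adjusted p of 0.049, and this call was lost in 8 of 13 alternative settings. LPIN2, the most abundant lipin, fell by 15.5% in Ako-3 cells (edgeR adjusted p = 0.0043) and changed by -0.01 on the log2 scale in Mko-3 cells (edgeR adjusted p = 0.94). The difference between the clones was 18.0% (edgeR adjusted p = 5.1e-05). LPIN1 fell by 17.1% in Ako-3 cells (edgeR adjusted p = 0.017), while its log2 fold change of -0.15 in Mko-3 cells did not pass the test (edgeR adjusted p = 0.17), and the clones did not differ by the test (edgeR adjusted p = 0.19).

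Both diacylglycerol acyltransferases, which complete TG synthesis, were lower in Mko-3 cells. DGAT1 (chr8:144314584-144326910, minus strand) measured 39.73, 35.78 and 32.91 FPKM in control, 35.84, 38.85 and 40.01 in Ako-3, and 20.89, 19.35 and 20.98 in Mko-3 libraries. The control and Ako-3 libraries overlapped and all Mko-3 libraries were lower. DGAT1 mRNA fell to 0.56 times control in Mko-3 cells (log2 fold change -0.84 ± 0.072 SE, edgeR adjusted p = 4.3e-09) and was 46.9% below Ako-3 cells (-0.91 ± 0.050 SE, edgeR adjusted p = 1.6e-26). In Ako-3 against control cells the log2 fold change was 0.08 (edgeR adjusted p = 0.39). Genes around DGAT1 shifted in the same direction in Mko-3 cells. Of 65 other genes tested within 1 Mb, 35 were lower and 4 higher in Mko-3 than in Ako-3 cells by the adjusted p alone, with a median of -0.24, where 20.6% of all genes were lower. Against control, 29 of 68 were lower and 11 higher, beside 27.1% and 26.9% of all genes. This count was added after the values were seen, and its part in the DGAT1 result was not tested.

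DGAT2 (chr11:75759512-75801535, plus strand), which has no sequence relation to DGAT1, measured 6.279, 5.170 and 5.582 FPKM in control, 4.877, 5.197 and 5.169 in Ako-3, and 3.351, 3.335 and 3.458 in Mko-3 libraries. All Mko-3 libraries were again below the others, and Ako-3 libraries overlapped with control. DGAT2 mRNA fell by 41.0% in Mko-3 cells (log2 fold change -0.76 ± 0.087 SE, edgeR adjusted p = 2.5e-07), and by 33.9% against Ako-3 cells (edgeR adjusted p = 1.3e-10). The 10.8% lower mean in Ako-3 cells did not pass the test (edgeR adjusted p = 0.11). Of the 19 other genes tested within 1 Mb of DGAT2 between the clones, 5 were lower and 1 higher, with a median of 0.05. Among all genes, 20.6% were lower and 21.1% higher.

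MGLL, which splits monoacylglycerol, was the only tested gene of TG breakdown. It measured 19.00, 18.19 and 18.00 FPKM in control, 19.08, 17.89 and 18.92 in Ako-3, and 18.07, 17.42 and 19.26 in Mko-3 libraries. The 3 groups overlapped, and MGLL changed on the log2 scale by 0.01 in Ako-3 (edgeR adjusted p = 0.86) and -0.02 in Mko-3 cells (edgeR adjusted p = 0.76). MGLL overlaps over 550 bases with SEC61A1 on the opposite strand, which rose in both clones. LIPE ranged from 0.0102 to 0.0881 FPKM over the control libraries, from 0.0385 to 0.0695 in Ako-3 and from 0.0434 to 0.0624 in Mko-3 libraries, at 1 to 8 counts, and was not tested.

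**Figure D3:**
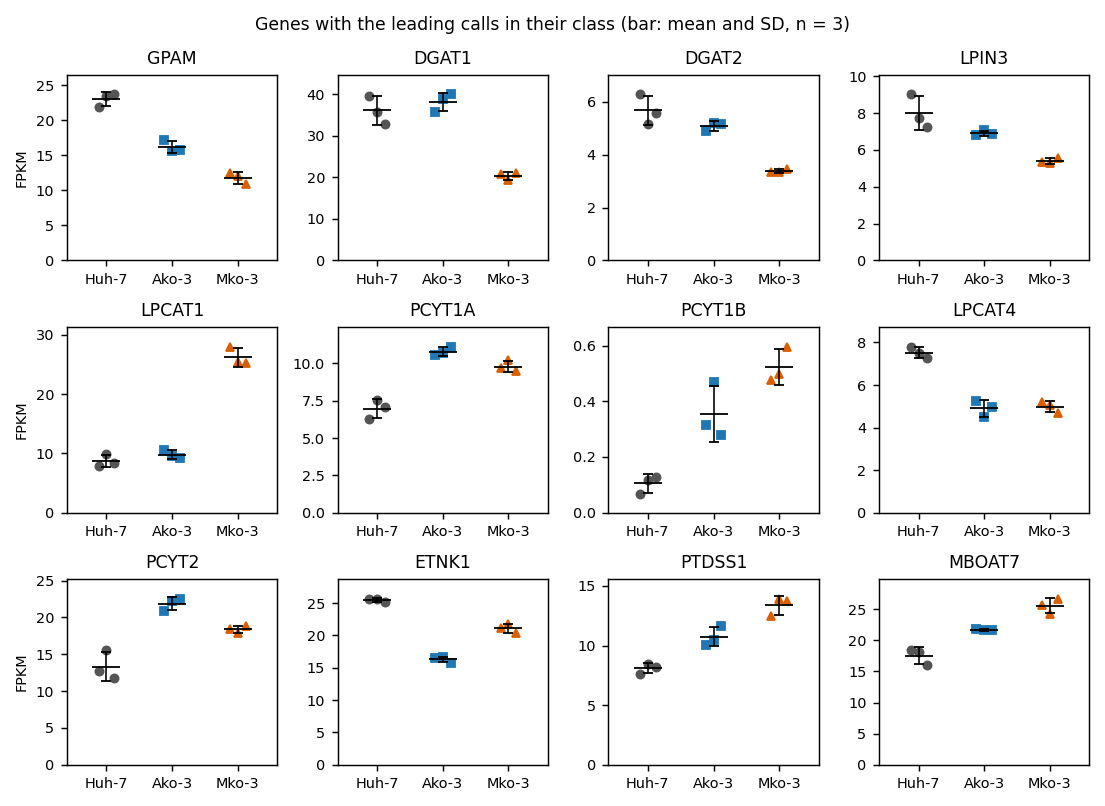
Deposited FPKM of 12 genes in each library (grey circles, Huh-7; blue squares, Ako-3; orange triangles, Mko-3), with horizontal bars for the mean and vertical bars for the SD of 3 libraries. Every axis starts at 0. GPAM, DGAT1, DGAT2 and LPIN3 are lowest in Mko-3 cells, LPCAT1 is high in Mko-3 cells alone, and PCYT1A, PCYT1B, PCYT2, PTDSS1 and MBOAT7 lie above control in both clones, while LPCAT4 and ETNK1 lie below it.

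In the CDP-choline route to PC, the mRNA of the regulated cytidylyl transferase step rose in both clones, while the choline kinases before it did not pass the test and the phosphotransferases after it fell slightly. Of the 10 tested PC genes, 3 rose and 3 fell in Ako-3 cells, beside 25.5% and 24.4% of all genes tested. In Mko-3 cells 4 rose and 4 fell, beside 26.9% and 27.1% of all genes tested. In both clones the risen genes include PCYT1B, which passed the filter on low counts only through the clones. PCYT1A (chr3:196214222-196287957, minus strand) encodes the main CTP:phosphocholine cytidylyl transferase, whose reaction usually sets the rate of PC synthesis. It measured 6.309, 7.544 and 7.058 FPKM in control, 10.55, 10.68 and 11.13 in Ako-3, and 9.686, 10.24 and 9.464 in Mko-3 libraries. Every library of both clones was above every control library. PCYT1A mRNA rose by 54.5% in Ako-3 cells (log2 fold change 0.63 ± 0.075 SE, edgeR adjusted p = 8.5e-07) and by 39.5% in Mko-3 cells (0.48 ± 0.076 SE, edgeR adjusted p = 1.8e-05). Mko-3 cells were 9.60% below Ako-3 cells, with an edgeR adjusted p of 0.023 that was lost in 6 of 13 alternative settings. The gene span of PCYT1A, introns included, overlaps over 28957 bases with that of SLC51A on the opposite strand. SLC51A had a mean of 3.16 FPKM in control cells and a log2 change of 0.03 in Ako-3 cells.

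PCYT1B (chrX:24558087-24672677, minus strand), the second isoform of the same enzyme, measured 0.0670, 0.118 and 0.128 FPKM in control, 0.315, 0.470 and 0.279 in Ako-3, and 0.475, 0.498 and 0.596 in Mko-3 libraries. These levels rest on 7 to 13 counts in control, 27 to 52 in Ako-3 and 47 to 51 in Mko-3 libraries. Every library of the clones was above every control library, and the highest Ako-3 library lay just under the lowest Mko-3 library. PCYT1B passed the filter on low counts only through the clones in which it was high, and it was not tested against control when 10 counts were required in every library, so the p values beside its fold changes carry no weight of their own. The fold change was 3.40 in Ako-3 cells (log2 1.77 ± 0.364 SE, edgeR adjusted p = 0.00041) and 4.94 in Mko-3 cells (log2 2.31 ± 0.325 SE, edgeR adjusted p = 4e-06). The clones did not differ by the test (log2 difference 0.53, edgeR adjusted p = 0.071). Even at its highest level it was 5.08% ± 0.733 (SD, n = 3) of the summed PCYT1A and PCYT1B FPKM, in Mko-3 cells.

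Among the other genes of PC synthesis, CHPT1 and CEPT1, which join phosphocholine to diacylglycerol, fell by 10.7% and 15.9% in Ako-3 cells (edgeR adjusted p = 0.045 and 0.037) and by 16.7% and 17.1% in Mko-3 cells (edgeR adjusted p = 0.002 and 0.021). Apart from that of CHPT1 in Mko-3 cells, these calls were lost in 5 to 7 of 13 alternative settings, and CEPT1 overlaps over 590 bases with DRAM2 on the opposite strand, which fell by 0.58 on the log2 scale in Ako-3 cells. PEMT, which methylates phosphatidylethanolamine to PC in hepatocytes, was 16.4% lower in Mko-3 cells with an edgeR adjusted p of 0.032, a call lost in 7 of 13 settings, and 2.54% lower in Ako-3 cells (edgeR adjusted p = 0.79). CHKA, the choline kinase that supplies the route, changed by 0.12 on the log2 scale in Ako-3 (edgeR adjusted p = 0.14) and by 0.07 in Mko-3 cells (edgeR adjusted p = 0.40). CHKB had 8 to 22 counts over the 9 libraries and shares its locus with the read-through gene CHKB-CPT1B on the same strand, so its log2 fold changes of -0.04 in Ako-3 (edgeR adjusted p = 0.94) and -0.53 in Mko-3 cells (edgeR adjusted p = 0.32) are uncertain.

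The lysophosphatidylcholine acyltransferases, which remodel the fatty acids of PC, gave the clearest difference between the clones. LPCAT1 (chr5:1456480-1523977, minus strand), known for saturated PC and for lung surfactant, measured 7.906, 9.873 and 8.333 FPKM in control, 10.58, 9.524 and 9.205 in Ako-3, and 27.99, 25.32 and 25.27 in Mko-3 libraries. Control and Ako-3 libraries overlapped, and the lowest Mko-3 library was more than 2-fold above the highest library of either. LPCAT1 mRNA was 2.99-fold that of control in Mko-3 cells (log2 1.58 ± 0.078 SE, edgeR adjusted p = 1.2e-12) and 2.67-fold that of Ako-3 cells (log2 1.42 ± 0.053 SE, edgeR adjusted p = 2.4e-36). LPCAT1 in Ako-3 cells differed from control by 0.17 on the log2 scale (edgeR adjusted p = 0.11). The rise in Mko-3 cells rests on 2528 to 3239 counts against 965 to 986 in control, and ranged from 1.51 to 1.69 over the alternative settings. Of 20 other genes tested within 1 Mb of LPCAT1, 7 were higher and 7 lower in Mko-3 than in control cells, with a median of 0.05. Among all genes, 26.9% were higher and 27.1% lower.

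LPCAT4 (chr15:34358618-34367278, minus strand) fell to a like level in both clones. It measured 7.805, 7.519 and 7.262 FPKM in control, 5.267, 4.484 and 4.968 in Ako-3, and 5.180, 5.057 and 4.694 in Mko-3 libraries. Every library of the clones was below every control library, and the clones overlapped. The fall was 35.1% in Ako-3 (log2 fold change -0.62 ± 0.088 SE, edgeR adjusted p = 6.4e-06) and 34.4% in Mko-3 cells (-0.61 ± 0.086 SE, edgeR adjusted p = 4.4e-06), with a log2 difference of 0.02 ± 0.084 (SE) between the clones (edgeR adjusted p = 0.89). LPCAT3, the acyltransferase for polyunsaturated PC, was 44.1% higher in Ako-3 (edgeR adjusted p = 1.5e-05) and 43.1% higher in Mko-3 cells (edgeR adjusted p = 9.7e-06). These values are uncertain, because the gene span of LPCAT3, introns included, overlaps over 30252 bases with that of C1S, a complement gene on the opposite strand. The gene length of LPCAT3 used for FPKM is 4725 bases. The overlap of exons was not measured, so how far reads of C1S enter these values was not tested. C1S had log2 fold changes of 1.22 in Ako-3 and 1.42 in Mko-3 cells.

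The genes of the ethanolamine route moved in opposite directions within the route. Of the 12 genes of other phospholipids, 5 rose and 1 fell in Ako-3 cells, beside 25.5% and 24.4% of all genes tested. In Mko-3 cells 3 rose and 5 fell, beside 26.9% and 27.1% of all genes tested. PCYT2 (chr17:81900965-81911464, minus strand), the CTP:phosphoethanolamine cytidylyl transferase, measured 12.67, 15.52 and 11.76 FPKM in control, 20.84, 22.17 and 22.52 in Ako-3, and 18.42, 17.87 and 18.87 in Mko-3 libraries. The 3 groups did not overlap, with Ako-3 cells highest and control cells lowest. PCYT2 mRNA rose by 63.9% in Ako-3 (log2 fold change 0.71 ± 0.082 SE, edgeR adjusted p = 9.3e-07) and by 37.1% in Mko-3 cells (0.46 ± 0.081 SE, edgeR adjusted p = 9.7e-05). Mko-3 cells were 16.3% below Ako-3 cells (edgeR adjusted p = 4.8e-06). PCYT1A and PCYT2, which catalyse the matching step for choline and for ethanolamine, thus both rose in both clones.

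ETNK1 (chr12:22625075-22690665, plus strand), the ethanolamine kinase that precedes PCYT2, measured 25.59, 25.66 and 25.13 FPKM in control, 16.45, 16.62 and 15.78 in Ako-3, and 21.13, 21.79 and 20.37 in Mko-3 libraries. The groups did not overlap, and Ako-3 cells were lowest. ETNK1 mRNA fell by 36.2% in Ako-3 (log2 fold change -0.65 ± 0.060 SE, edgeR adjusted p = 2.5e-08) and by 17.8% in Mko-3 cells (-0.28 ± 0.059 SE, edgeR adjusted p = 0.00038), and was 28.9% higher in Mko-3 than in Ako-3 cells (edgeR adjusted p = 3.1e-10). ETNK2, a second ethanolamine kinase known from liver, differed from ETNK1 in Ako-3 cells and between the clones, and was lower in Mko-3 cells as ETNK1 was. It was 20.6% higher in Ako-3 (edgeR adjusted p = 0.013) and 19.5% lower in Mko-3 cells than in control (edgeR adjusted p = 0.012), and 33.2% lower in Mko-3 than in Ako-3 cells (edgeR adjusted p = 8.2e-09). PISD, the mitochondrial phosphatidylserine decarboxylase that makes phosphatidylethanolamine, was 15.2% lower in Mko-3 cells with an edgeR adjusted p of 0.021, a call lost in 6 of 13 settings, and 10.1% lower in Ako-3 cells (edgeR adjusted p = 0.13).

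PTDSS1 (chr8:96261715-96336995, plus strand), which makes phosphatidylserine from PC, measured 7.607, 8.427 and 8.231 FPKM in control, 10.08, 10.48 and 11.62 in Ako-3, and 12.46, 13.92 and 13.77 in Mko-3 libraries. The levels rose from control to Ako-3 to Mko-3 cells without overlap. The rise was 32.3% in Ako-3 (log2 fold change 0.40 ± 0.077 SE, edgeR adjusted p = 2e-04) and 64.1% in Mko-3 cells (0.72 ± 0.074 SE, edgeR adjusted p = 5.8e-08), and Mko-3 cells were 24.1% above Ako-3 cells (edgeR adjusted p = 5.2e-06). PTDSS2, which uses phosphatidylethanolamine instead, changed by -0.07 on the log2 scale in Mko-3 (edgeR adjusted p = 0.49) and by less than 0.01 in Ako-3 cells (edgeR adjusted p = 0.97).

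MBOAT7 (chr19:54173412-54189882, minus strand), the arachidonoyl transferase of phosphatidylinositol, followed the same order as PTDSS1. It measured 18.50, 18.10 and 16.03 FPKM in control, 21.89, 21.65 and 21.61 in Ako-3, and 25.77, 24.28 and 26.68 in Mko-3 libraries, again without overlap. MBOAT7 mRNA was 23.5% higher in Ako-3 (edgeR adjusted p = 0.00084) and 44.5% higher in Mko-3 cells (edgeR adjusted p = 1.3e-06), and differed by 17.1% between the clones (edgeR adjusted p = 6.1e-05). The genes that lead to phosphatidylinositol and cardiolipin moved less. CDS2, which activates phosphatidic acid with CTP, fell by 19.4% in Mko-3 cells (edgeR adjusted p = 0.00017), while its relative CDS1 and the phosphatidylinositol synthase CDIPT did not pass the test in either clone. CRLS1, the cardiolipin synthase, fell by 15.8% in Mko-3 cells (edgeR adjusted p = 0.0023). PGS1, the phosphatidylglycerophosphate synthase, was at 1.16 times control in Ako-3 cells with an edgeR adjusted p of 0.046, a call lost in 7 of 13 settings, and its log2 fold change in Mko-3 cells was 0.01.

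The makeup of the LPCAT, ETNK and PTDSS families differed between groups without overlap in some comparisons, though 3 libraries per group cannot bring the test of a share under 0.05. The share of an isoenzyme is its FPKM as a percentage of its family's summed FPKM in a library. LPCAT1 made up 33.85%, 39.29% and 34.75% of LPCAT mRNA in control, 37.68%, 38.45% and 36.03% in Ako-3, and 62.15%, 61.63% and 60.56% in Mko-3 libraries, so that it was the main LPCAT mRNA in Mko-3 cells. In Ako-3 cells LPCAT3 was the largest, with 43.9% ± 0.593 (SD, n = 3) against 32.8% ± 2.10 in control cells, subject to the overlap with C1S. LPCAT4 made up 31.2% ± 1.92 in control, 18.8% ± 0.672 in Ako-3 and 11.7% ± 0.555 in Mko-3 cells. ETNK2 made up 30.3% ± 0.401 of ethanolamine kinase mRNA in Ako-3 cells, beside 18.6% ± 1.07 in control and 18.4% ± 1.97 in Mko-3 cells. PTDSS1 made up 57.0% ± 2.42 in control, 63.8% ± 0.375 in Ako-3 and 69.6% ± 2.50 in Mko-3 cells. The DGAT1 share differed less, with 86.4% ± 0.940 in control, 88.3% ± 0.273 in Ako-3 and 85.8% ± 0.445 in Mko-3 cells, where both DGAT genes had fallen. Among 25 shares compared in each of 3 comparisons, 13, 11 and 18 did not overlap between the groups in Ako-3 against control, Mko-3 against control and Mko-3 against Ako-3 cells (52%, 44% and 72%). Of the 25 shares, 14 belong to 7 families of 2 genes, where the shares mirror each other and each difference is counted for both genes. Over single genes, compared by scaled counts, 57.6%, 60.7% and 49.8% of those tested did not overlap in the same order. The percentages of shares against control are below those over all genes, and that between the clones is above. A share and a gene's level are different measures, so these percentages are a description only. The two-sided exact permutation test with 3 libraries per group gives no p below 0.1, and none of the 75 tests fell below 0.179 after Benjamini-Hochberg adjustment.

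**Figure D4:**
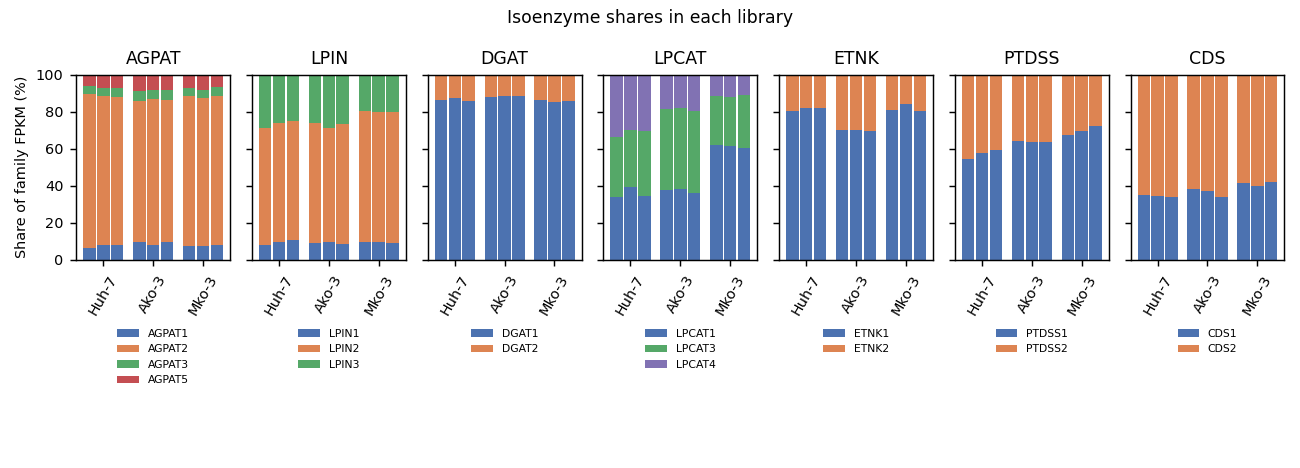
Share of each isoenzyme in the summed FPKM of its family (percent) in the 9 libraries, with 3 bars per group and 1 panel per family. Isoenzymes under 0.1% are not drawn. LPCAT1 fills over 60% of the LPCAT bars in Mko-3 cells, LPCAT4 shrinks in both clones, ETNK2 is largest in Ako-3 cells, and DGAT1 stays between 85.3% and 88.56% of the DGAT bars.

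The summed mRNA of a class changed little, except that of the PC genes in Mko-3 cells, which was 17.6% above control. TG synthesis genes summed to 325 ± 21.9 FPKM (SD, n = 3) in control, 341 ± 17.2 in Ako-3 and 343 ± 11.2 in Mko-3 cells, with overlapping libraries, and the larger part of each sum came from AGPAT2. PC genes summed to 106 ± 4.69 FPKM in control, 113 ± 0.714 in Ako-3 and 125 ± 2.66 in Mko-3 cells. LPCAT1 alone had a mean of 8.70 FPKM in control and 26.2 in Mko-3 cells. The median log2 fold change of the tested PC genes in Mko-3 cells was -0.095, so the higher sum was not a rise of the whole class. The PC sums of the 3 groups did not overlap, and the two-sided exact permutation p was 0.1 in each comparison, the smallest that 3 libraries per group allow. The other phospholipid genes summed to 196 ± 6.63, 202 ± 0.956 and 198 ± 2.51 FPKM, and the 2 TG breakdown genes to 18.5 ± 0.489, 18.7 ± 0.659 and 18.3 ± 0.945 FPKM, in the same order of groups.

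Upstream sequences are shown for 4 picked genes, to set LPCAT1, PCYT1B and GPAM, with the largest rises and fall in Mko-3 cells, beside PCYT2, which rose in both clones. DGAT1, DGAT2 and PTDSS1, which changed more than PCYT2 in Mko-3 cells, are not shown. A sequence of LPIN1, with 3 GGGCGG matches, was also searched and is not printed. The sequences are the bases before the transcription start in the RefSeq table (GRCh38.p14), on the strand of the gene and without annotated exon bases. Capitals mark matches on either strand to GGGCGG (also as CCGCCC), the core of the GC box, and to CCAAT (also as ATTGG). LPCAT1 is shown from chr5:1523963-1524210, PCYT1B from chrX:24672888-24673137, GPAM from chr10:112183766-112184015 and PCYT2 from chr17:81911433-81911649, all on the minus strand. The starts used for LPCAT1, GPAM and PCYT2 lie inside the gene spans of the deposited table. Some bases shown for these genes may therefore be exon bases in that annotation.
LPCAT1: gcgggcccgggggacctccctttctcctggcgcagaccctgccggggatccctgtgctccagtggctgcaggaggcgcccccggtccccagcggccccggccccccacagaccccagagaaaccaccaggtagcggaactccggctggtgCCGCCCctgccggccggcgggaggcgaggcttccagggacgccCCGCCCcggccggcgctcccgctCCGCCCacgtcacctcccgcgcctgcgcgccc
PCYT1B: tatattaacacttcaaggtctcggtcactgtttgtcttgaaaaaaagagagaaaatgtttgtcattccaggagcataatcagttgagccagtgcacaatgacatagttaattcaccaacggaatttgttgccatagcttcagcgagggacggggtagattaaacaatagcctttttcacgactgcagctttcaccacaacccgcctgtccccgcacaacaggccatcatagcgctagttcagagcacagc
GPAM: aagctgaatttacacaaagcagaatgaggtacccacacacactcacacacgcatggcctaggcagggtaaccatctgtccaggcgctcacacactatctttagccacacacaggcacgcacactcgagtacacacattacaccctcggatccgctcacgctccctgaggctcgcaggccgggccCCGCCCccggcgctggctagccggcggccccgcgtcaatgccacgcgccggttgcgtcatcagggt
PCYT2: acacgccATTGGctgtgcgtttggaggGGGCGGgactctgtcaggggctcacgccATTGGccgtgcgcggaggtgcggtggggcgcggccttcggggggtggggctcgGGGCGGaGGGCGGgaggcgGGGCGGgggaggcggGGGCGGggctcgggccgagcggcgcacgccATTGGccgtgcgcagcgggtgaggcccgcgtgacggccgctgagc

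The PCYT2 sequence held 3 CCAAT and 5 GGGCGG matches, that of LPCAT1 3 GGGCGG matches, that of GPAM 1, and that of PCYT1B none of the motifs searched. The GC content was 78.6% for LPCAT1, 45.2% for PCYT1B, 62.0% for GPAM and 78.8% for PCYT2. In windows of 250 bases, available for 28 of the 36 genes, GGGCGG was found in 19 of 28 genes (67.9%) beside 42.6% of all 35116 promoters of the table, and CCAAT in 8 of 28 (28.6%) beside 32.01%. The sterol response element TCACNCCAC, the E-box CACGTG and the palindromic NRF1 motif were found in 0 of 28, where 0.883%, 6.35% and 1.03% of all promoters held them. A match is a stretch of letters and not a measured site.

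Of 75 further genes of glycerolipid and phospholipid metabolism and its regulation, 66 were tested, and by the adjusted p alone 12 rose and 28 fell in Ako-3 cells and 11 rose and 35 fell in Mko-3 cells, with medians of -0.21 and -0.28 on the log2 scale. These are 18.2% higher and 42.4% lower in Ako-3 cells, beside 25.5% and 24.4% over all genes tested, and 16.7% higher and 53.0% lower in Mko-3 cells, beside 26.9% and 27.1%. Among 5 long-chain acyl-CoA synthetase genes, which activate fatty acids for esterification, ACSL1, ACSL3 and ACSL4 fell in both clones, ACSL5 rose by 20.9% in Ako-3 (edgeR adjusted p = 0.0074) and fell by 0.36 on the log2 scale in Mko-3 cells (edgeR adjusted p = 0.0028), and ACSL6 did not pass the test in either. ACSS2, the acetyl-CoA synthetase of the cytosol, had log2 fold changes of -0.43 in Ako-3 (edgeR adjusted p = 1.5e-05) and -0.88 in Mko-3 cells (edgeR adjusted p = 9.4e-10). The synthetases are named after their values were seen. At the thresholds of the study, DGKH (a diacylglycerol kinase) at -1.13 and PPARGC1A at -1.44 were lower in Ako-3 cells and the transporter-like gene SLC44A4 was higher at 1.05. In Mko-3 cells, MOGAT3 (an acylglycerol acyltransferase) was lower at -1.10, GPCPD1 (a glycerophosphocholine phosphodiesterase) at -1.22, DGKA at -1.18 and the lysophospholipase PNPLA7 at -1.47, while SLC44A3 was higher at 1.09. GPD1, which makes glycerol 3-phosphate, passed at -1.13, but its groups overlapped, with 9 to 22 counts in Mko-3 and 21 to 49 in control libraries. Over all genes tested, 5% and 7.22% were lower at these thresholds in Ako-3 and Mko-3 cells. Some of the named genes also fell in the other clone by the adjusted p alone. In Ako-3 cells MOGAT3 fell by 42.7% (edgeR adjusted p = 7.1e-08) and GPCPD1 by 40.3% (edgeR adjusted p = 2.1e-07), and DGKH fell by 37.2% in Mko-3 cells (edgeR adjusted p = 0.00038). DGKA, PNPLA7, SLC44A3 and GPD1 did not pass the test in Ako-3 cells, nor did SLC44A4 in Mko-3 cells.

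Among the regulators, MLXIPL, which encodes the glucose-responsive factor ChREBP, fell in both clones. The fall was 77.1% in Mko-3 cells (log2 fold change -2.13 ± 0.101 SE, edgeR adjusted p = 7.3e-13) and 35.7% in Ako-3 cells (-0.64 ± 0.081 SE, edgeR adjusted p = 1.9e-06). MLXIPL was lower in Mko-3 than in Ako-3 cells by 1.49 on the log2 scale (edgeR adjusted p = 1.7e-25). PPARGC1A, a coactivator of oxidative metabolism, had 27 to 48 counts in control, 12 to 14 in Ako-3 and 1 to 6 in Mko-3 libraries, with a mean of 0.186 FPKM in control cells. It was tested in Mko-3 cells only through the group in which it was higher, so the size of its log2 fold change of -3.08 (edgeR adjusted p = 6e-06) is poorly determined. SREBF1, which encodes the main transcription factor of fatty acid synthesis, changed by 0.28 on the log2 scale in Ako-3 (edgeR adjusted p = 0.0013) and -0.20 in Mko-3 cells (edgeR adjusted p = 0.011), and was lower in Mko-3 than in Ako-3 cells by 0.48 on the log2 scale (edgeR adjusted p = 9.3e-16). PPARG, a regulator of lipid storage, changed by 0.10 on the log2 scale in Ako-3 (edgeR adjusted p = 0.23) and 0.25 in Mko-3 cells (edgeR adjusted p = 0.0028). Between the clones, PNPLA7 (-1.18) and SLC44A5 (-1.20) were also lower in Mko-3 cells at the thresholds of the study. PPARGC1A (-1.64) and the phospholipase gene PLA2G4A (-1.43, with 14 to 15 counts in Ako-3 and 3 to 8 in Mko-3 libraries) passed as well, but entered this test only through the Ako-3 libraries, and neither was tested when 10 counts were required in every library.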

How the data were processed

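Poly(A) RNA was measured in 3 libraries each of Huh-7, Ako-3 and Mko-3 cells. To make the raw counts of 58735 genes that they deposited, the authors used HISAT2 2.0.5 on hg38 and then featureCounts 1.5.0-p3 (versions per the labels). The FPKM deposited by the authors are these counts divided by the gene length in bases, deposited as another column, and by a library size proportional to size factors over all 9 libraries. Library totals of 14638727 to 20179760 leave genes near 10 counts with wide errors, and limits from counts cover counting error only.

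Groups were taken from the sample labels. Counts were tested with edgeR 4.0.16 in R 4.3.3 (TMM scaling, filterByExpr with its minimum count set to 10, robust quasi-likelihood F test, Benjamini-Hochberg adjustment over all genes tested), in a separate fit of 6 libraries per comparison. A standard error is the size of the log2 fold change over the square root of F. The 2 call rules were a log2 fold change of 1 or more in either direction with an adjusted p of 0.05 or less, and this adjusted p alone. Levels and isoenzyme shares used FPKM and two-sided exact permutation tests (scipy 1.17.1). All 36 members are named. Values per library are given for members past the thresholds of the study and for the 2 members per class with the smallest adjusted p against control, and also for LPIN3, DGAT2, LPCAT4, PCYT2 and MBOAT7, chosen after their values were seen. Other pathway genes are named where they passed the thresholds, at most 3 per list and comparison, with SREBF1 and PPARG always given. The members and gene lists were chosen with earlier results of these data known. On simulated counts with 200 changed genes, the test recovered 85% to 88% of 2-fold and 58% to 71% of 1.5-fold changes. False ones made up 4.9% to 7% of its calls. Many more genes passed in the real data, so these rates may not carry over. Of the symbols, 1 was matched through an older name, and 27 gene names that had become dates in the tables were left as they were. Alternatives were DESeq2 1.42.0, RLE and upper quartile scaling, no filter, a stricter filter, all 9 libraries in 1 fit, a replicate block, and leaving out each library. The planned search for protein motifs was not run.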

Additional observations from a re-analysis of the deposited data

Results flagged for a closer look

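LPCAT1 is the only member whose effect differed between the clones at the thresholds of the study. Its log2 fold change was 1.417 ± 0.053 (SE) in Mko-3 against Ako-3 cells (edgeR adjusted p = 2.4e-36), higher in 3 of 3 Mko-3 libraries than in any Ako-3 library, and ranged from 1.37 to 1.48 over 13 alternative settings. Against the shared control the log2 fold changes were 1.58 in Mko-3 and 0.17 in Ako-3 cells. Of 21 other genes tested within 1 Mb of LPCAT1, 2 were higher and 2 lower in Mko-3 than in Ako-3 cells, with a median of 0.07. Among all genes, 21.1% were higher and 20.6% lower by the adjusted p alone. Each clone is a single line, so the deleted gene and the clone cannot be told apart.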

How the results depend on the processing

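Over 1282 combinations of a member's comparison and an alternative, 1188 counted as unchanged, 70 lost their call, 16 gained one and 0 calls reversed. Unchanged means a call kept with its direction, or a value without a call that moved by no more than its standard error. Some of these values without a call changed sign. An alternative that gave no adjusted p also counted as unchanged. The rest were values without a call that moved further. The calls lost most often were those of LPIN3, CHPT1, CEPT1 and PGS1 in Ako-3 cells, of PEMT, PISD and CEPT1 in Mko-3 cells, and of AGPAT1, PCYT1A and PGS1 between the clones. When 10 counts were required in every library, PCYT1B was no longer tested, so members at the thresholds of the study numbered 0 in Ako-3 and 1 in Mko-3 cells, and over all genes 841, 1113 and 511 were called in Ako-3 and Mko-3 against control and between the clones, as fewer genes were tested. Other pathway genes called between the clones numbered 5, and 3 with this filter, 3 with DESeq2 and 3 without Mko-3 replicate 3, and the cause was not tested. Leaving out each library in turn, members at the thresholds numbered 1 to 1, 2 to 3 and 1 to 1 in the 3 comparisons, those by adjusted p alone 14 to 23, 20 to 25 and 16 to 19, and other pathway genes between the clones 3 to 6. All genes called by adjusted p alone then numbered 6566 to 8346, 7326 to 9043 and 5663 to 6135. Same-numbered libraries did not deviate together (r from -0.071 to 0.067), so replicate numbers were not used as pairs. A fit with the replicate block called 15, 24 and 18 members by adjusted p alone, beside 19, 24 and 18 without it. By the same rule it called 7397, 8562 and 6612 genes over all, beside 7880, 8509 and 6462 without it. At the thresholds of the study it called 1336, 1730 and 899 genes over all. Upper quartile scaling moved the median of all genes to -0.06 in Ako-3 and -0.08 in Mko-3 cells.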

Other observations

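Genes near PCYT1B on the X chromosome differed between the clones. Of 12 other genes tested within 1 Mb, 9 were lower and 1 higher in Ako-3 than in control cells by edgeR's adjusted p alone, with a median log2 fold change of -0.49, while PCYT1B itself was higher at 1.77. In Mko-3 cells 3 were lower and 2 higher, with a median of 0.04, and between the clones 9 were higher and 1 lower in Mko-3 cells, with a median of 0.41. These counts were made after the values were seen. Among all genes tested, the same rule gave 24.4% lower and 25.5% higher for Ako-3 against control. For Mko-3 against control it gave 27.1% and 26.9% in that order, and for Mko-3 against Ako-3 20.6% and 21.1%. Both counts of 9 use the same 3 Ako-3 libraries, so they are not independent.

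At the CHKB locus, CHKB-DT on the opposite strand had more counts than CHKB itself, with 29 to 44 in control, 47 to 61 in Ako-3 and 49 to 77 in Mko-3 libraries, against 8 to 22 for CHKB over all 9 libraries. The read-through gene CHKB-CPT1B had 26 to 35 counts in control, 20 to 24 in Ako-3 and 12 to 25 in Mko-3 libraries.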
